A study of Mus musculus with 9 samples.

Results

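The expression of 6 genes was examined in 6DT1 cells, a mammary cancer line of FVB/NJ mice that came from a tumor driven by MMTV-Myc, after knockdown (KD) of Resf1 with either of 2 shRNAs. The genes were Cdh5, Eya1, Aldh3a1, 3830417A13Rik, Ephb2 and Ccn3 (also called Nov), 6 of the 5301 genes in the table. They were chosen by their log2 difference between the shH6 and shH4 libraries, as the 3 largest in each direction among genes above a set level whose libraries did not overlap. That difference is therefore a description for these 6 and was not tested. The groups were shControl, which carried a scramble hairpin and is labelled wildtype, shH4 (Resf1 sh4 knockdown) and shH6 (Resf1 sh6 knockdown), with 3 libraries each. Cells of all groups were grown in puromycin at 10 ug/ml, and RNA was taken 24 hours after seeding at equal density. The methods describe 3 dishes seeded per condition and name no separate transductions, so the SD between libraries may leave out variation between transductions.

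The 6 genes have little in common by function. Cdh5 encodes VE-cadherin, the adhesion receptor of endothelial adherens junctions, and Eya1 encodes a coactivator of homeodomain transcription factors that is also a tyrosine phosphatase. Aldh3a1 is an aldehyde dehydrogenase that detoxifies reactive aldehydes. Ephb2 is a receptor tyrosine kinase for ephrin-B ligands on neighbouring cells, and Ccn3 is a secreted matricellular protein of the CCN family. 3830417A13Rik is a protein-coding gene on the X chromosome that is known here only by its RIKEN clone name. RNA interference acts mainly through base pairing of a guide strand with its target, and the seed, bases 2 to 8 of the guide, can also pair with other messages.

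The hairpin sequences are shown because shH4 and shH6 are named by them. Other differences between the transduced cells of shH4 and shH6 cannot be told apart from those of the hairpins. The guide strands, with the seed in capitals, were as follows.
shH4 guide: tTTCGATTtgtaacataggtc
shH6 guide: aAACAACCaagttacctcagg
Each is the reverse complement of a site in Resf1 transcripts, found in 5 of the 11 annotated transcripts for shH4 and in 2 of the 11 for shH6. The shH4 site lies in the coding sequence, in exon 3, on chromosome 6 from 149327436 to 149327456 on the plus strand (GRCm38). The shH6 site lies in the 3′ UTR, in exon 5, on chromosome 6 from 149335414 to 149335434 on the plus strand (GRCm38). The sites read 5′ to 3′ as follows.
shH4 site: gacctatgttacaaatcgaaa
shH6 site: cctgaggtaacttggttgttt
The letters that pair with the seed are AATCGAA for shH4 and GGTTGTT for shH6. In the longest annotated 3′ UTR of each of the 6 genes, neither heptamer was found on the sense strand. Among the 4646 genes of the table with an annotated 3′ UTR, 2.04% held the shH4 heptamer and 11.6% the shH6 heptamer. Over the whole length of all annotated transcripts, an Ephb2 transcript held 1 match to the shH6 heptamer, and those of the other 5 genes held 0 matches to either. The shares above are for 3′ UTRs, and no such share is given here for whole transcripts. The match is a description of the letters and was not tested as a site.

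Resf1, the target, averaged 1585 ± 29.3 normalized counts (shControl), 982 ± 31.7 (shH4) and 1121 ± 8.88 (shH6), with SD over 3 libraries, a reduction of 38.1% with shH4 and of 29.3% with shH6. The table held estimated reads divided by a size factor per library, and the estimated reads in its genes ran from 10.5 to 19.9 M per library. The table was selected: each of the 5301 genes had changes of 1 sign in shH4 and shH6, and 100% passed a limma adjusted p of 0.05 when the average of both hairpins was set against shControl. A call against shControl therefore says little about any gene in it. In the direct comparison of shH6 with shH4, 8.26% of the genes passed that threshold, 3.89% higher and 4.38% lower in shH6.

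The 6 genes fell into 2 sets by the hairpin in which they were farther from shControl. Cdh5, Eya1 and Aldh3a1 were farther from shControl in shH4, whereas 3830417A13Rik, Ephb2 and Ccn3 were farther in shH6. Over the whole table, 46.3% of the genes were farther from shControl in shH4, so a set of 3 and a set of 3 is close to the split of all genes. Calls against shControl are a description for these 6, since the choice used their shH4 and shH6 values, and nothing is read from them. For the average of both hairpins 4 of the 6 were called higher and 2 lower, beside 51.2% and 48.8% of all genes. In shH4 alone 6 of the 6 passed, beside 95.7% of all genes, with 49.2% higher and 46.5% lower. In shH6 5 of the 6 passed, beside 96.1%, with 49.1% higher and 46.9% lower. Cdh5 in shH6 was the exception.

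**Figure D1:**
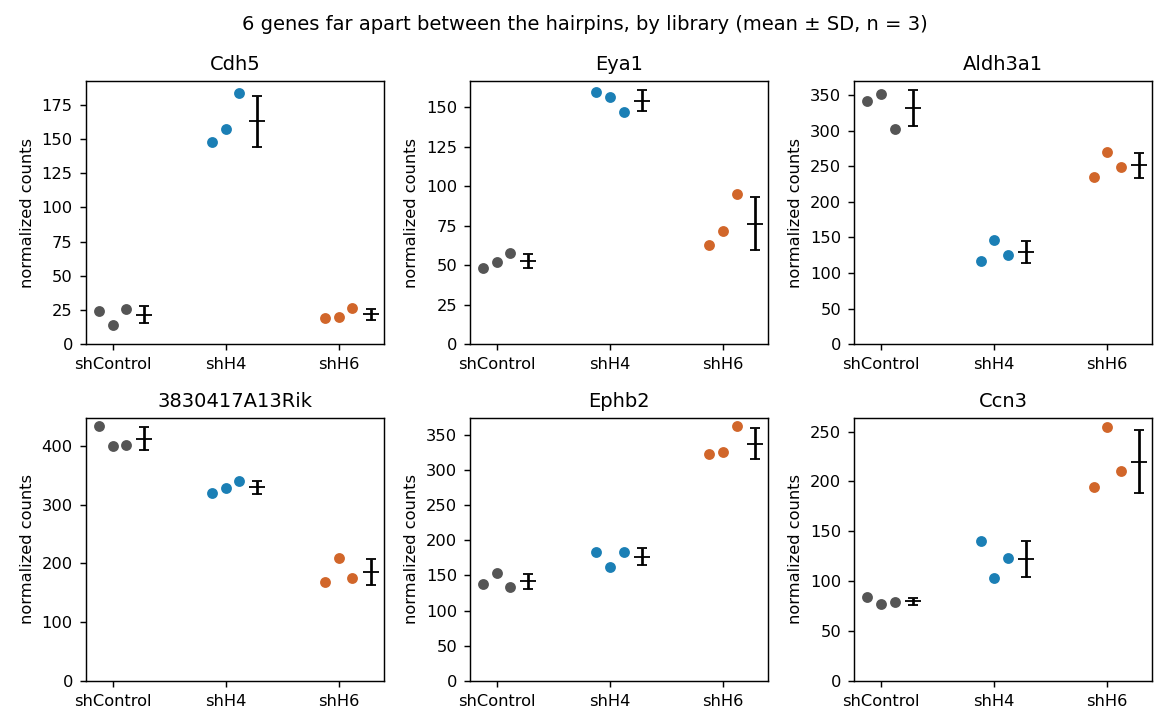
Normalized counts (y axis, from 0) of the 6 genes in each of the 9 libraries by group (x axis), with the mean ± SD of 3 libraries drawn beside the points. Cdh5 in shH4 lies between 148 and 184 while its shControl and shH6 libraries all lie between 14.2 and 26.2; in the other 5 genes the 3 groups do not overlap.

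Cdh5 (ENSMUSG00000031871) was far higher in shH4 than in shControl or shH6. Its values were 24.6, 14.2 and 25.5 normalized counts in shControl, 148, 157 and 184 in shH4, and 19.1, 19.9 and 26.2 in shH6. The shH4 libraries were all far above the other 6, and the shH6 libraries overlapped those of shControl. The mean rose 7.60-fold in shH4, a log2 change of 2.91 (SE 0.22), against 0.050 (SE 0.22) in shH6. Without shControl replicate 2, its lowest library, the value in shH6 was −0.21, and neither passed the threshold. These values rest on few reads. The shControl libraries held 12 to 36 estimated reads of Cdh5 and the shH6 libraries 19 to 25, whereas the shH4 libraries held 143 to 188. Among the 294 genes of the table with a log2 change of at least 1 in either hairpin, Cdh5 had the most unequal pair of changes. Its smaller change was 1.73% of its larger on the log2 scale, followed by Sall1 at 15.5%, and the median of the 294 was 71.7%. That ranking was added after the values were seen and uses the difference by which Cdh5 was picked.

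Eya1 (ENSMUSG00000025932) rose in both hairpins and more in shH4. Its values were 48.5, 52.2 and 57.6 normalized counts in shControl, 159.7, 156 and 147 in shH4, and 62.7, 71.4 and 94.8 in shH6. The 3 groups did not overlap, although the highest shH6 library stood well above the other shH6 libraries. The mean was 2.92-fold that of shControl in shH4 and 1.45-fold in shH6, with log2 changes of 1.53 and 0.51 (SE 0.15 each). Without shH6 replicate 3, the library with the highest value, the log2 difference between shH6 and shH4 moved from −1.03 to −1.19. The log2 change in shH6 was then 0.34 in place of 0.51, and with library weights it was 0.29.

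Aldh3a1 (ENSMUSG00000019102) fell in both hairpins and more in shH4. Its values were 342, 351 and 302 normalized counts in shControl, 117, 146 and 125 in shH4, and 235, 270 and 249 in shH6. The shH4 libraries were the lowest and those of shH6 lay between shH4 and shControl, without overlap. Relative to shControl the mean fell by 60.9% in shH4 and fell by 24.2% in shH6. The log2 changes were −1.35 and −0.40 (SE 0.098 each).

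3830417A13Rik (ENSMUSG00000031179) fell in both hairpins and more in shH6, the reverse order of Aldh3a1. Its values were 435, 401 and 401 normalized counts in shControl, 319, 329 and 340 in shH4, and 168, 210 and 176 in shH6. The 3 groups stood apart in that order. The log2 changes were −0.32 in shH4 and −1.16 in shH6 (SE 0.086 each), and relative to shControl the mean fell by 20.1% in shH4 and fell by 55.2% in shH6.

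Ephb2 (ENSMUSG00000028664) rose in both hairpins and more in shH6. Its values were 138, 154 and 133 normalized counts in shControl, 183, 163 and 184 in shH4, and 324, 326 and 363 in shH6. In shH4 its lowest library was only slightly above the highest shControl library, and in shH6 all libraries were far above both other groups. The mean was 1.25-fold that of shControl in shH4 and 2.38-fold in shH6, with log2 changes of 0.32 and 1.25 (SE 0.093 each).

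Ccn3 (ENSMUSG00000037362) followed the same order as Ephb2. Its values were 84.0, 77.1 and 78.6 normalized counts in shControl, 140, 103 and 123 in shH4, and 194, 255 and 211 in shH6. The groups did not overlap, and the spread was wider in both KD groups than in shControl. The mean was 1.53-fold that of shControl in shH4 and 2.75-fold in shH6, with log2 changes of 0.60 and 1.44 (SE 0.13 each). Its change in shH4 was 41.4% of that in shH6 on the log2 scale.

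**Figure D2:**
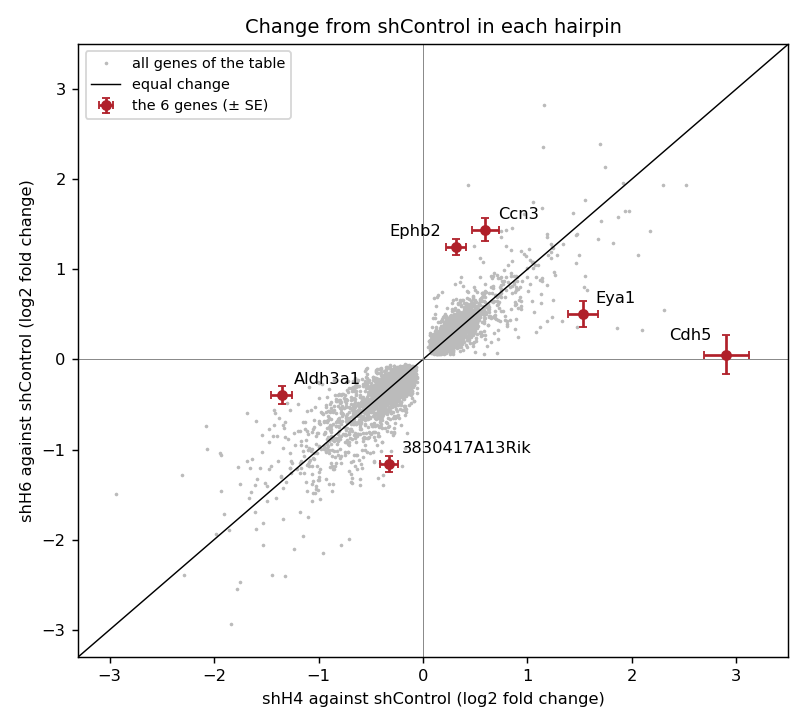
Log2 fold change from shControl in shH4 (x axis) and in shH6 (y axis) for all 5301 genes (grey points) and for the 6 genes (red points, ± SE of the limma fit), with a line of equal change. Cdh5 lies at 2.91 in shH4 and 0.050 in shH6; Eya1 and Aldh3a1 also lie nearer the shH4 axis, while Ephb2, Ccn3 and 3830417A13Rik lie on the shH6 side of the line. The empty corners follow from the selection of the table.

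In 5 of the 6 genes the 3 groups stood apart from each other, and the exception was Cdh5. This was the case for 20.7% of all genes, but the hairpins of the 6 were apart by the way they were chosen, and of the 1312 genes whose hairpins did not overlap, 1097 had all 3 groups apart. All 6 KD libraries lay on a single side of shControl for the same 5 genes, beside 86.4% of all genes. The shH4 libraries of 6 genes and the shH6 libraries of 5 stood clear of shControl, beside 93.3% and 92.1% of all genes. The separation of shH4 from shH6, found in 24.8% of all genes, was part of how the 6 were picked.

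The size of the difference between the hairpins is given as a description. On the log2 scale, shH6 was lower than shH4 by −2.86 (SE 0.22) for Cdh5, −1.03 (SE 0.15) for Eya1 and −0.84 (SE 0.086) for 3830417A13Rik. It was higher by 0.95 (SE 0.098) for Aldh3a1, 0.93 (SE 0.093) for Ephb2 and 0.85 (SE 0.13) for Ccn3. The median absolute difference over the table was 0.066. The 6 genes were the extremes only among genes with a mean of at least 10 ppm of the column total in shH4 or shH6 and no overlap between the hairpins. Just outside stood Ace, at 0.79 (SE 0.096), on the side higher in shH6, and Hist1h1a, at −0.80 (SE 0.054), on the side higher in shH4. Above the last of the 6 in rank, 17 genes higher in shH4 and 12 higher in shH6 were below that level, and Lars2 was above it but overlapped between the hairpins.

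Between libraries, the 6 genes varied more than most genes, which were not matched to them in level. The pooled SD of the 6 ran from 0.10 to 0.31 on the log2 scale against a median of 0.069 over the table. All 54 of their values were whole multiples of a read within 0.02, so the counting error behind each is known. It covers counting only, and the methods name no molecular identifiers. For Cdh5 in shControl the coefficient of variation between libraries was 29.2%, against 22.7% from counting alone, and in shH6 it was 17.8% against 21.6%. For Ephb2 both figures lay between 5.48% and 8.36% in every group. The spread was well above counting error in Eya1 in shH6 (21.7% against 11.6%), in Ccn3 in shH6 (14.3% against 6.82%) and in shH4 (15.0% against 9.24%), and in 3830417A13Rik in shH6 (11.99% against 7.45%). It was well below counting error in Ccn3 in shControl (4.59% against 11.2%) and in Eya1 in shControl (8.66% against 13.7%) and in shH4 (4.34% against 8.14%). The same held for 3830417A13Rik in shH4 (3.20% against 5.57%). A coefficient of variation from 3 libraries is imprecise, and the excess was not tested.

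**Figure D3:**
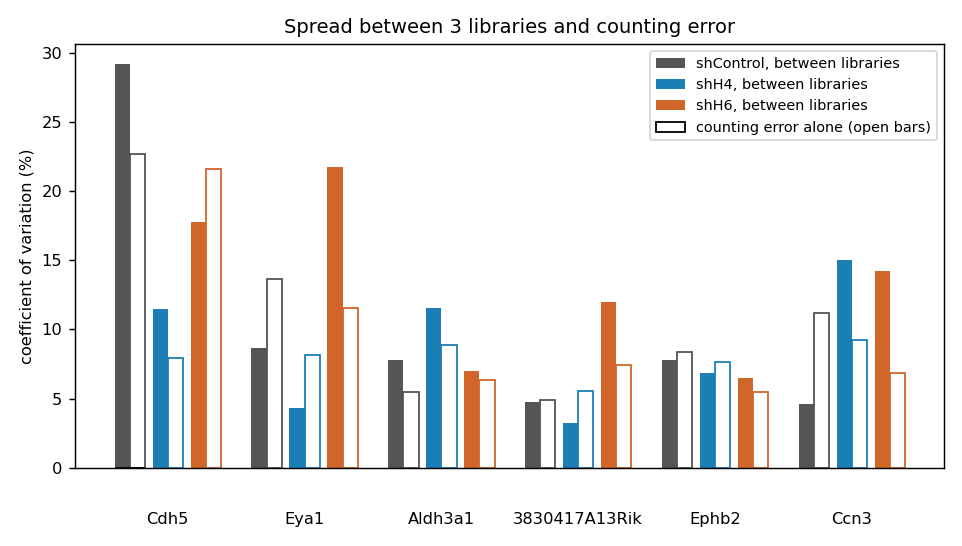
Coefficient of variation in percent (y axis, from 0) of each of the 6 genes in each group, between its 3 libraries (filled bars) and from counting error alone (open bars). The filled bar exceeds the open bar most in Eya1 in shH6, at 21.7% against 11.6%, and the tallest pair is that of Cdh5 in shControl.

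Levels were compared between genes as normalized counts per kb of annotated exon. In shControl the order was 3830417A13Rik (233 ± 11.03 per kb), Aldh3a1 (171 ± 13.3), Ccn3 (27.9 ± 1.28), Ephb2 (11.2 ± 0.877), Eya1 (6.76 ± 0.585) and Cdh5 (5.10 ± 1.49), with SD and n = 3 each. Only Eya1 and Cdh5 were within their spread of each other. In shH4, Cdh5 was at 38.8 ± 4.45 per kb, above Eya1 (19.7 ± 0.857) and Ephb2 (14.0 ± 0.959) and close to Ccn3 (42.6 ± 6.39). In shH6, Aldh3a1 (129 ± 9.01 per kb) was above 3830417A13Rik (105 ± 12.5), whereas in shControl it was below.

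The genes of the table whose values over the 9 libraries were most like each of the 6 were identified by Pearson's r of log2 values, among 5022 genes with a mean of at least 50 normalized counts. These coefficients are a description, because the 9 libraries fall into 3 groups and r mostly restates the group means. Nearest to Cdh5 were Mum1l1 (r = 0.97), the zinc finger gene Zfp37 (0.96) and Atrnl1 (0.96). Mum1l1 averaged 159.6 ± 9.02 normalized counts (shControl), 262 ± 15.2 (shH4) and 167 ± 10.04 (shH6), so it had the shape of Cdh5 with a log2 change of only 0.71 in shH4. Nearest to Eya1 were Cdk12, a kinase of RNA polymerase II, the exosome nuclease gene Exosc10 and Tnrc6a (each r = 0.97), with log2 changes in shH4 of 0.49, 0.29 and 0.25. Nearest to Aldh3a1 were the fatty acid binding protein gene Fabp5 (0.99), Gchfr (0.98) and Trim12c (0.98).

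For 3830417A13Rik they were Enpp5 (r = 0.99), the translesion polymerase gene Polh (0.98) and Arhgap45 (0.98). Enpp5 averaged 136 ± 13.9 normalized counts (shControl), 107 ± 11.1 (shH4) and 60.2 ± 7.14 (shH6), and its log2 change of −1.16 in shH6 matched that of 3830417A13Rik in size. For Ephb2 they were the purine synthesis gene Pfas (0.98), the condensin II gene Ncapg2 (0.98) and Pofut1 (0.97), with log2 changes in shH6 of 0.21, 0.20 and 0.26. For Ccn3 they were Ncapg2 (0.98), Syce2 (0.98) and Lgr6, a receptor for R-spondins (0.97). Lgr6 averaged 182 ± 6.99 normalized counts (shControl), 225 ± 10.8 (shH4) and 326 ± 13.03 (shH6), a log2 change of 0.84 in shH6, the closest in size of the 3 to that of Ccn3. Most of these genes shared the order of the groups but changed far less than the gene they resembled.

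The genes that lie next to each of the 6 on its chromosome were then examined, since they were not used in picking it. Within 1 Mb of Cdh5, GENCODE M21 lists 28 protein-coding genes, of which the table held only Tk2. Tk2, a mitochondrial thymidine kinase gene, was at 366 ± 24.6 normalized counts in shH4 and 357 ± 34.3 in shH6, a log2 difference of −0.040 (SE 0.083, limma adjusted p = 0.835). The other neighbours of Cdh5 were not analysed here. For Eya1 the nearest listed genes were Lactb2 and the pseudogene Rpl5-ps1, with differences of 0.066 (SE 0.057) and −0.21 (SE 0.11) and limma adjusted p-values of 0.549 and 0.275. The table held no gene within 1 Mb of 3830417A13Rik.

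The nearest listed neighbour of Aldh3a1 on the higher-coordinate side was its relative Aldh3a2, a dehydrogenase of fatty aldehydes, and it differed between the hairpins in the opposite direction. Aldh3a2 was at 1958, 1819 and 1886 normalized counts in shControl, 1496, 1595 and 1586 in shH4 and 1145, 1141 and 1049 in shH6. Its 3 groups did not overlap, and shH6 was below shH4, with a log2 difference of −0.49 (SE 0.048, limma adjusted p = 1.06e-05). Both genes fell in both hairpins, Aldh3a1 more in shH4 and Aldh3a2 more in shH6. Of the 11 listed genes within 1 Mb of Aldh3a1, Aldh3a2 was the only gene called between the hairpins, near the 8.26% of all genes called. Of the 12 listed genes around Ephb2, 2 were called, beside 8.26% of all genes, and the differences of the 12 ran from −0.14 to 0.28. E2f2, a cell cycle transcription factor gene named after its values were seen, differed by 0.28 (SE 0.055, limma adjusted p = 0.00450), in the direction of Ephb2. The nearest on the lower-coordinate side, Luzp1, differed by −0.12 (SE 0.036, limma adjusted p = 0.0412), against the direction of Ephb2, and on the other side Cdc42 differed by −0.0094 (SE 0.036, limma adjusted p = 0.925). Beside Ccn3, Samd12 differed by −0.34 (SE 0.073, limma adjusted p = 0.00678), also against the direction of Ccn3.

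The families and pathways of the 6 genes were examined with 14 lists, which held 83 genes of the table besides the 6. Of these, 15 (18.1%) passed the threshold in the direct comparison of the hairpins (limma, adjusted over the table), beside 8.26% of all genes, with 6 higher and 9 lower in shH6. Their median absolute difference was 0.086 on the log2 scale, beside 0.066 over the table. Without shH6 replicate 1 the count was 10. The calls of Krt8, Six4, Aldh6a1, Aldh18a1, Gstp1 and Amotl2 were each lost in some fits with a library left out.

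**Figure D4:**
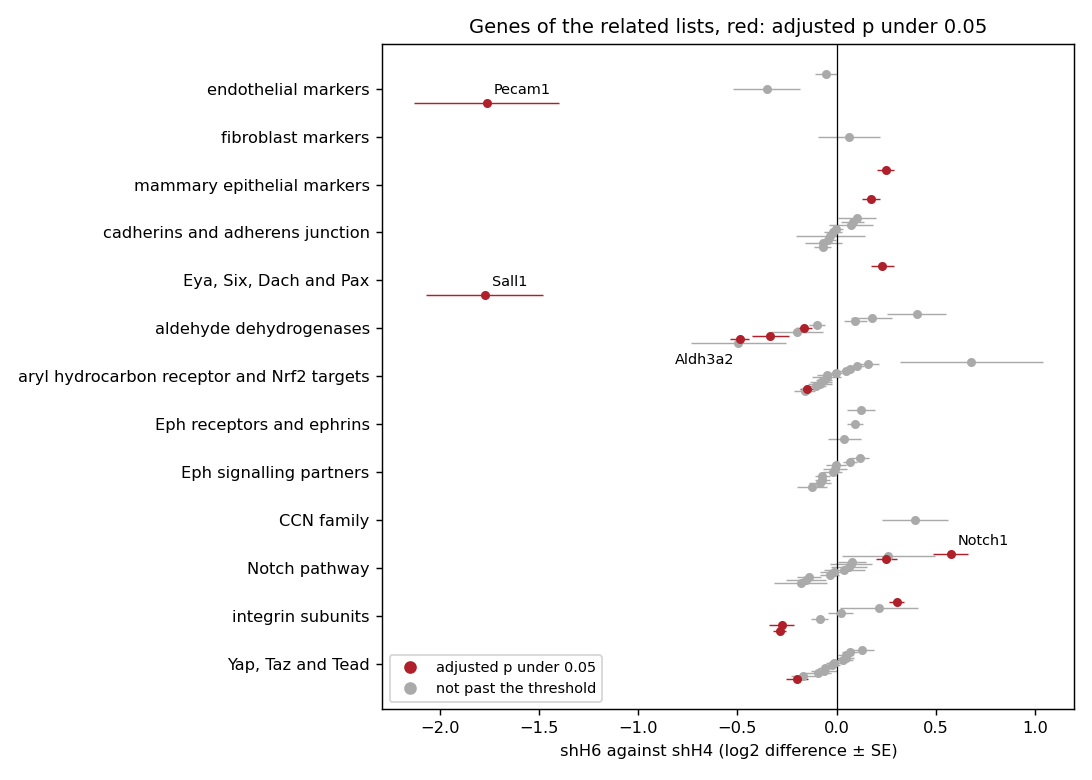
Difference between shH6 and shH4 on the log2 scale (x axis, ± SE of the limma fit) for the genes of each related list that the table held, the 6 genes left out (rows are lists). Red points passed an adjusted p of 0.05 and grey points did not; Pecam1 and Sall1 lie farthest out, at −1.76 and −1.77.

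Endothelial genes were examined because Cdh5 marks that cell type. Of 32 endothelial markers the table held Pecam1, Egfl7 and Eng, and they did not move together. Pecam1, an adhesion receptor of endothelial junctions, had 6.15, 5.93 and 2.22 normalized counts in shControl, 25.6, 27.5 and 24.4 in shH4 and 6.88, 9.44 and 4.99 in shH6. The shH4 libraries stood above all the others, as for Cdh5, and the log2 difference of shH6 from shH4 was −1.76 (SE 0.37, limma adjusted p = 0.00599). Its lowest library, in shControl, held 2 estimated reads, so its level there is barely above detection, and with a pseudocount of 10 the difference was −1.07. Eng, a coreceptor for TGF-β, and Egfl7, a secreted angiogenic factor, fell in both hairpins, by 0.40 and 0.57 on the log2 scale in shH4 and by 0.75 and 0.62 in shH6. Neither passed the threshold between the hairpins (limma adjusted p = 0.232 and 0.637). The summed level of the 3 markers ran from 974 to 1094 normalized counts over the shControl libraries, from 683 to 754 over those of shH4 and from 655 to 672 over those of shH6, most of it Egfl7. Its part in the Cdh5 result was not tested. The other 29 markers, and all 15 leukocyte markers, were not analysed here. Of 13 fibroblast markers the table held Pdgfra, which did not pass the threshold between the hairpins (0.063, SE 0.16, limma adjusted p = 0.864). In bulk RNA, more cells with a transcript and more transcript per cell cannot be told apart.

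The cadherin and adherens junction list held 9 genes of the table besides Cdh5. By limma 0 of them passed the threshold between the hairpins, beside 8.26% of all genes. At an unadjusted p under 0.05, 0 of the 9 did. Their differences ran from −0.070 to 0.10 on the log2 scale. The largest was that of Nectin1, a junctional adhesion gene, at 0.10 (SE 0.097, limma adjusted p = 0.598), with means of 279.5 ± 26.9 normalized counts (shControl), 331 ± 28.9 (shH4) and 356 ± 42.97 (shH6). Jup, which encodes plakoglobin, fell by 0.42 in shH4 and by 0.34 in shH6 on the log2 scale. Against shControl, 6 of the 9 were called higher and 3 lower in each hairpin, so all 9 were called, as were 95.7% (shH4) and 96.1% (shH6) of the selected table.

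The mammary epithelial keratin genes Krt8 and Krt18 were the only listed genes of the 20 epithelial markers, and both were lower in shH4. Krt18 had 12980, 11822 and 12573 normalized counts in shControl, 9733, 10274 and 9995 in shH4 and 12109, 12453 and 11081 in shH6. It fell by 0.32 on the log2 scale in shH4, while its change in shH6 was −0.069 (limma adjusted p = 0.139), and shH6 was above shH4 by 0.25 (SE 0.044, limma adjusted p = 0.00209). For Krt8 the difference was 0.17, again higher in shH6 (SE 0.045, limma adjusted p = 0.0232).

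Of the list of Eya genes and their partners, the table held Six4 and Sall1 besides Eya1. Sall1, a zinc finger regulator of kidney and limb development, had 7.52, 4.74 and 5.54 normalized counts in shControl, 28.6, 25.3 and 31.3 in shH4 and 6.88, 8.39 and 7.48 in shH6. As for Cdh5, the shH4 libraries stood above all the others, and shH6 was below shH4 by −1.77 (SE 0.30, limma adjusted p = 0.00119). Its lowest library, in shControl, held 4 estimated reads. With a pseudocount of 10 the difference was −1.12. Six4, a DNA-binding partner of Eya proteins, rose in both hairpins and more in shH6, with means of 534 ± 31.7 normalized counts (shControl), 702 ± 23.8 (shH4) and 824 ± 25.1 (shH6). The difference was 0.23 (SE 0.058, limma adjusted p = 0.0194), in the opposite direction to Eya1.

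All 9 other aldehyde dehydrogenase genes in the table fell in each hairpin, with median log2 changes of −0.48 in shH4 and −0.54 in shH6, in a table where 46.5% and 46.9% of all genes were called lower. Besides Aldh3a2, Aldh6a1 and Aldh18a1 were lower in shH6 than in shH4, by −0.33 (SE 0.094, limma adjusted p = 0.0374) and −0.16 (SE 0.040, limma adjusted p = 0.0164), and 0 were higher. Aldh3b3 shared the order of Aldh3a1, with 71.3 ± 4.51 normalized counts (shControl), 36.96 ± 2.07 (shH4) and 49.2 ± 1.85 (shH6), but its difference of 0.40 (SE 0.15) did not pass the threshold (limma adjusted p = 0.112). Aldh3a1 is also a known target of the aryl hydrocarbon receptor. Of the 14 listed genes of that receptor and of the Nrf2 pathway, 1 was called between the hairpins, near the 8.26% of all genes called. It was Gstp1, a glutathione transferase gene, at −0.15 (SE 0.039, limma adjusted p = 0.0251). Gsta1, another glutathione transferase gene, had a larger difference, 0.68 (SE 0.36, limma adjusted p = 0.292), with means of 9.62 ± 4.81 normalized counts (shControl), 15.7 ± 2.78 (shH4) and 26.9 ± 11.2 (shH6), but it was not past the threshold.

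For Ephb2, the table held the receptor genes Epha2 and Epha4 and the ligand gene Efnb2. Epha4 and Efnb2 rose in both hairpins, by 0.55 and 0.39 on the log2 scale in shH4 and by 0.67 and 0.43 in shH6. Epha2 rose in shH6 by 0.16, and its change in shH4 was 0.067 (limma adjusted p = 0.119). By limma, 0 of the 3 were called between the hairpins, beside 8.26% of all genes. Epha2 alone had an unadjusted p under 0.05, and the differences ran from 0.038 to 0.12. Among 9 listed partners of Eph signalling, such as the kinases Fyn and Src, 0 were called either, beside the same 8.26%. Src alone had an unadjusted p under 0.05. The differences of the 9 ran from −0.12 to 0.12.

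For Ccn3, the only other CCN gene in the table was Ccn5, which fell in both hairpins with means of 65.8 ± 6.80 normalized counts (shControl), 34.96 ± 1.62 (shH4) and 46.6 ± 7.61 (shH6). Its difference between the hairpins was 0.39 (SE 0.17, limma adjusted p = 0.174). CCN3 is known to bind Notch1 and integrins. Of the 12 listed Notch pathway genes 2 were called between the hairpins, and of the 6 integrin genes 3 were, beside 8.26% of all genes, and neither list was tested as a group. Notch1 had 1062, 1152 and 1238 normalized counts in shControl, 548, 674 and 625 in shH4 and 881, 815 and 1061 in shH6. The shH4 libraries were below all others, while the highest shH6 library lay just under the lowest shControl library. The difference between the hairpins was 0.57 (SE 0.088, limma adjusted p = 0.000622). The ligand gene Jag2 fell in both hairpins and was higher in shH6 by 0.25 (SE 0.051, limma adjusted p = 0.00520), and the other 10 listed Notch pathway genes were not called between the hairpins.

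Of 6 listed integrin genes, Itga2 and Itga6 were higher in shH4 and Itgb2 was lower in it. Itga6, a subunit of laminin receptors, had 5558, 5676 and 5556 normalized counts in shControl, 7538, 7390 and 7600 in shH4 and 6295, 6152 and 6015 in shH6. The 3 groups did not overlap, and shH6 was below shH4 by −0.29 (SE 0.032, limma adjusted p = 3.76e-05). Itga2, a subunit of a collagen receptor, differed by −0.28 (SE 0.061, limma adjusted p = 0.00838) and Itgb2, the leukocyte integrin chain, by 0.30 (SE 0.038, limma adjusted p = 9.67e-05). Among 12 listed genes around Yap, Taz and Tead, which control several CCN genes, 1 was called between the hairpins, near the 8.26% of all genes called. It was Amotl2, at −0.20 (SE 0.056, limma adjusted p = 0.0375).

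**Figure D5:**
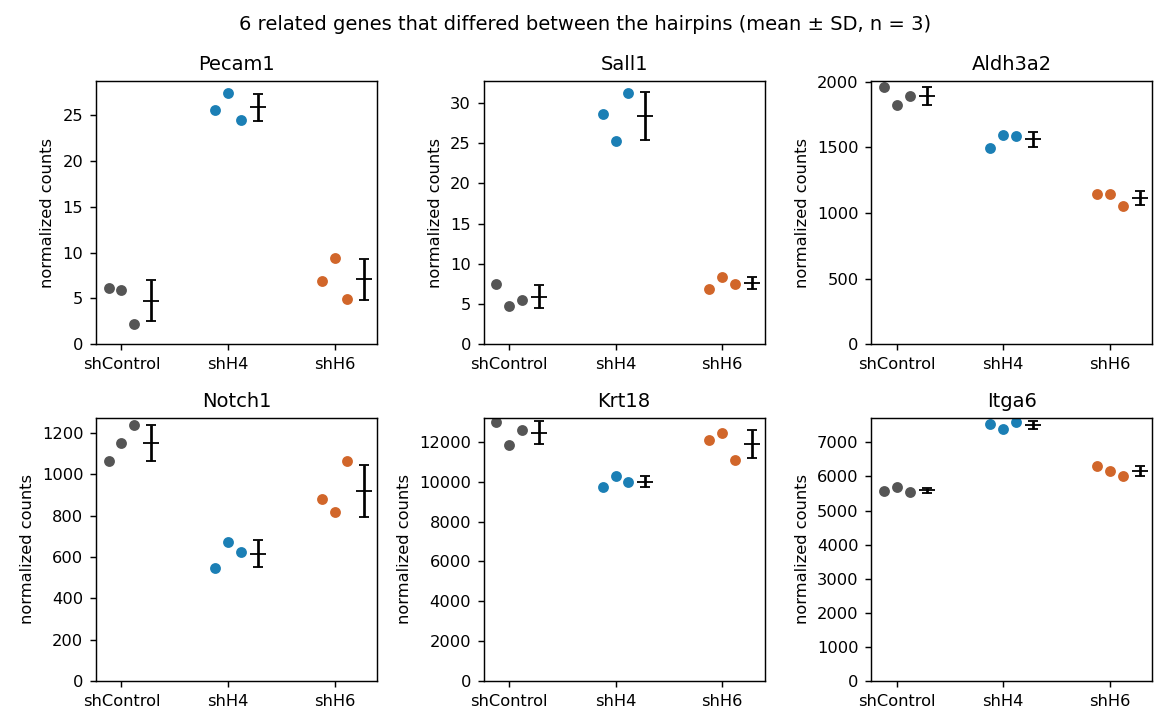
Normalized counts (y axis, from 0) of Pecam1, Sall1, Aldh3a2, Notch1, Krt18 and Itga6 in each of the 9 libraries by group (x axis), with the mean ± SD of 3 libraries drawn beside the points. Pecam1 and Sall1 are highest in shH4, at 24.4 to 31.3 normalized counts, while Aldh3a2 is lowest in shH6 and Notch1 is lowest in shH4.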

How the data were processed

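RNA-seq libraries (TruSeq Stranded Total RNA) of 9 samples were analysed, grouped by their titles. Per the submitters' processing notes, STAR 2.7.8a, Partek and DESeq2 were used with the mm39 build, and the methods describe median-ratio normalization. The annotation and strand setting of the counting are not given in the sources used here. The authors deposited a normalized signal for each gene, in which 75.0% of the values below 150 were whole multiples of a read within 0.02. Since this is short of nearly all, no count-based test was run. Chi-square per gene between replicates was 2.39 to 7.44, so no library was a copy of another, and 0 value columns were left over.

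Log2(value + 1) was fitted with limma 3.58.1 (R 4.3.3; tables were made in Python 3.11.15), with 1 mean per group, a variance trend and no filter, and Benjamini-Hochberg adjustment covered the 5301 genes of the table. This scale understates the change of low genes. The code was tested on simulated data. Symbols, lengths and neighbours came from GENCODE M21 (GRCm38), which matched 5258 identifiers. Genes outside the table, which holds genes that differed from shControl, were not analysed here. The 6 genes, the lists and the tests were chosen with earlier results of these data known.

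Besides the 6 genes and Resf1, genes were named by rule: the 3 most similar to each, the nearest listed on each side within 1 Mb, list genes called between the hairpins with up to 4 further per list of the largest difference, and those next to or between the 6 in rank. Alternatives were pseudocounts of 0.5 and 10, a minimum of 10 normalized counts in each library, fits of the compared groups alone, a replicate block, upper-quartile and column-total scaling, library weights and leaving out each library. P-values measure the spread between dishes, which may be technical.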

Additional observations from a re-analysis of the deposited data

Results flagged for a closer look

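Among the genes of the related lists, 15 had an effect against shControl that differed between the hairpins in the direct limma test of shH6 against shH4. The 6 genes themselves were picked for such a difference and are not counted. Lower in shH6 on the log2 scale were Sall1 (−1.77), Pecam1 (−1.76), Aldh3a2 (−0.49), Aldh6a1 (−0.33), Itga6 (−0.29), Itga2 (−0.28), Amotl2 (−0.20), Aldh18a1 (−0.16) and Gstp1 (−0.15). Higher in shH6 were Notch1 (0.57), Itgb2 (0.30), Jag2 (0.25), Krt18 (0.25), Six4 (0.23) and Krt8 (0.17). The groups of 3 libraries are too small for a test of single libraries that stand apart.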

How the results depend on the processing

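With 17 alternatives, 739 values were recomputed: 0 changed direction past the threshold, 23 lost the threshold, 1 untested value (the Cdh5 difference) moved by more than the spread, and the other 715 gave the call of the reported fit or, if untested, moved less. The number of the 6 genes past the threshold was 6 for the mean of both hairpins, 6 in shH4 and 5 in shH6 under every alternative that could be fitted. In the reported fit 100%, 95.7% and 96.1% of all genes passed in these comparisons, so the counts say little about the 6. The 23 values that lost the threshold belonged to Krt8, Six4, Aldh6a1, Aldh18a1, Gstp1 and Amotl2, mostly with a library left out, which leaves fewer samples. The number of list genes called between the hairpins, 15, ran from 10 to 15 with a library left out (10 without shH6 replicate 1) and was 17 with library weights. With a minimum of 10 normalized counts in every library it was 13, as Pecam1 and Sall1, the largest differences of the lists, were then left out. A pseudocount of 10, which shrinks low values by construction, moved the difference of Cdh5 from −2.86 to −2.45, of Pecam1 from −1.76 to −1.07 and of Sall1 from −1.77 to −1.12. The replicate number did not pair the samples, with correlations of same-numbered deviations from −0.155 to 0.108, and with it as a block the number of list genes called was 15. Count-based tests had been planned only for raw counts and were not run. Few reads limit Cdh5, Pecam1 and Sall1.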

Other observations

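Several genes below the set level in shH4 and shH6, some of them higher in shControl, differed between the hairpins by more than at least the smallest differences of the 6. Smpdl3a (22.3 normalized counts in shH4) and Hoxb7 (31.8), a homeobox transcription factor gene, were highest in shH4, with means of 5.42 and 10.9 in shControl and 7.17 and 14.2 in shH6. Fscn1, which encodes the actin-bundling protein fascin, had means of 90.0 (shControl), 10.98 (shH4) and 31.3 (shH6). Inhbb, a subunit gene of activin B, had means of 110.5, 22.7 and 46.3 in that order, with overlap between the hairpins, and those of Kcnt1, a potassium channel gene, were 184, 48.9 and 88.9. Iqgap2 was lower in shH6, at 163, 68.5 and 37.1, as was Mdfi, at 55.1, 28.4 and 11.96. These genes were picked after their values were seen, and their differences are given with no test.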
